A study of Saccharomyces cerevisiae with 22 samples.

Results

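Transcript levels of fully aerobic and anaerobic yeast were compared over all measured genes. Of the 22 arrays of the series, the 8 labelled 20.9% oxygen (4 arrays) and 0% oxygen (4 arrays) were used for the comparison, and a single value was kept for each of 5449 genes. All cultures were Saccharomyces cerevisiae CEN.PK113-1A, a haploid strain of mating type alpha that needs no amino acids or nucleotides in its medium. They were grown in glucose-limited chemostats, in which the feed sets the growth rate, so that the supply of oxygen could be changed while cells divided at the same pace. The 4 arrays at 20.9% oxygen came from 4 separate cultivations fed with air, and the 4 arrays at 0% oxygen from 4 cultivations fed with nitrogen. Ergosterol and Tween 80, which supply the sterol and unsaturated fatty acids that yeast cannot make without oxygen, were in the medium at both levels. The groups differed in handling as well: exponentially growing cells were added to the 20.9% cultures at the start of the feed to prevent oscillations, and cells from 0% oxygen were collected in buffer saturated with nitrogen. These steps and the oxygen supply cannot be told apart. All cells were of a single strain. The p-values rest on a spread shared by all 22 arrays, which at the intermediate oxygen levels include repeated samples of a cultivation, and with the 8 arrays fitted alone 1949 genes were called instead of 2757. Values are log2 intensities of Affymetrix GeneChip Yeast Genome 2.0 probe sets, and changes are given as 20.9% minus 0% oxygen, so that a positive value means a higher level at 20.9% oxygen.

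Oxygen enters yeast physiology in several ways. It is the final electron acceptor of respiration and a substrate in the synthesis of haem, ergosterol and unsaturated fatty acids. Haem activates the transcription factor Hap1 and, through it, the repressor Rox1, which keeps hypoxic genes off in air, while Upc2 turns on sterol genes when sterols run low. In glucose-limited cultures residual glucose is low and genes for the use of ethanol, acetate and fatty acids are freed from glucose repression. The paper reports glucose below the detection limit in all its cultures, with or without oxygen.

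Changes were spread over much of the transcriptome, and most of them were small. Of the 5449 genes, 2757 (50.6%) were called different by limma at a Benjamini-Hochberg adjusted p under 0.01, 1196 of them higher (21.9% of all genes) and 1561 lower (28.6%) at 20.9% oxygen. A change of at least 2-fold was found for 672 called genes (12.3%), with 414 higher (7.6%) and 258 lower (4.73%). The median fold change of the called genes was 1.55, and 1231 of them changed less than 1.5-fold. Large changes were more often increases: 170 genes were at least 4-fold higher and 66 at least 4-fold lower, and 41 and 17 genes were at least 16-fold higher and lower. The 4 arrays at 20.9% oxygen and the 4 at 0% oxygen did not overlap for 2762 genes (50.7%), 2488 of which were called. The median change over all genes was -0.07. With cyclic loess applied to the deposited values, 2649 genes were called, 1416 higher and 1233 lower, so that the direction in which most small changes ran depended on the normalisation, whereas the genes changed at least 2-fold were mostly increases with loess too (449 higher and 212 lower).

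**Figure D1:**
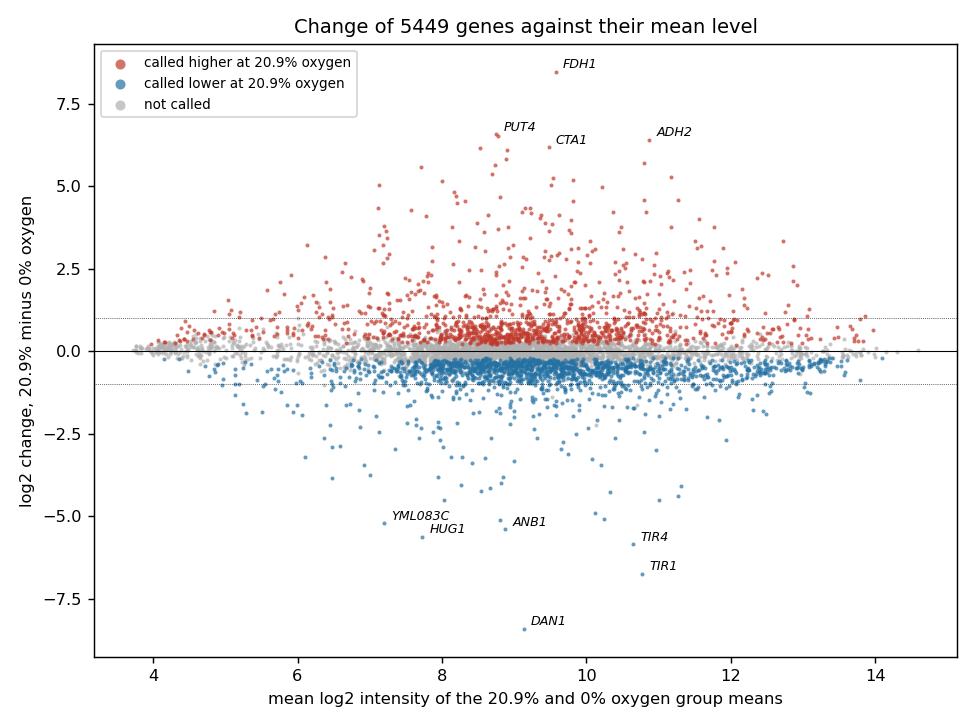
Log2 change (20.9% minus 0% oxygen, vertical axis) of the 5449 genes against the mean of their 2 group means (log2 intensity, horizontal axis), coloured by limma's call at adjusted p under 0.01. Dotted lines mark a 2-fold change; the called genes lie mostly between these lines, and the largest changes in either direction are those of FDH1 (8.46) and DAN1 (-8.41).

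The arrays were checked before single genes were looked at. Genes that mark alpha cells gave a strong signal at 20.9% oxygen, where the mean of MF(ALPHA)1, MF(ALPHA)2, STE3 and SAG1 was 10.3 to 11.3 in the arrays. At 0% oxygen this mean was 8.85 to 9.41. There MF(ALPHA)1 was at 12.52, STE3 at 9.09 and SAG1 at 8.33, but MF(ALPHA)2 (6.66) was level with the tenth percentile of all genes. Of 6 genes specific to a cells, 2 at 20.9% and 5 at 0% oxygen had a mean level below the tenth percentile of all genes (6.70 and 6.64), and so did 5 and 3 of 6 genes of sporulating cells. The spread of an array's genes around the mean of its group was widest in replicate 4 at 20.9% oxygen (SD 0.34, against at most 0.22 in the other 7 arrays), and replicate 1 at 0% oxygen stood apart in single genes of carbon metabolism. Without these 2 arrays 2404 genes were called, 2278 of them among the 2757. Changes of genes with a mean near the tenth percentile may be understated, which concerns 149 of the 672 genes changed at least 2-fold.

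The gene with the largest increase was FDH1 (YOR388C), for formate dehydrogenase, which turns formate into carbon dioxide. Its level was 13.82, 13.78, 13.56 and 14.05 in the 4 cultures at 20.9% oxygen, against 6.67, 4.72, 4.93 and 5.04 at 0% oxygen. All 4 aerobic cultures were thus far above the anaerobic ones, replicate 1 at 0% oxygen being the nearest to them, and the change was 8.46 ± 0.32 (standard error, adjusted p = 6.65e-15), or 353-fold. Among the 15 genes with the largest increases were those of 3 plasma membrane or mitochondrial transporters: PUT4, the proline permease (6.57), ADY2, an acetate transporter (6.52), and SFC1, the mitochondrial succinate-fumarate carrier (6.09). Enzymes for alternative substrates followed, namely ADH2, the alcohol dehydrogenase that oxidises ethanol (6.39), CTA1, the peroxisomal catalase (6.18), and CYB2, which passes electrons from L-lactate to cytochrome c (5.19). SUE1 (5.83) takes part in the breakdown of unstable cytochrome c, SHH3 (5.37) is a homologue of a subunit of succinate dehydrogenase and TKL2 (5.26) a minor transketolase. SPG1 (5.63), SPG4 (5.71) and GRE1 (5.29) are genes of stationary phase and desiccation, and YER053C-A (6.16) and YDL218W (5.59) have no standard name. Without replicate 1 at 0% oxygen the change of SPG1 was 6.32, and without replicate 4 at 20.9% oxygen that of YDL218W was 6.49. In all 15 genes the 4 aerobic arrays were above the 4 anaerobic arrays, which the choice of these genes required.

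The largest decrease was that of DAN1 (YJR150C), the gene of a cell wall mannoprotein. It had 4.56, 5.86, 5.09 and 4.18 at 20.9% oxygen, against 13.49, 13.65, 13.12 and 13.08 at 0% oxygen, a change of -8.41 ± 0.23 (adjusted p = 2.74e-17). Its level at 20.9% oxygen was below the tenth percentile of all genes, so the 341-fold difference may be understated. The genes that followed were TIR1 (-6.74), TIR4 (-5.84), TIR2 (-4.90) and TIR3 (-4.38), of the same class of wall proteins, and PAU24 (-5.07), a seripauperin whose probe set also matches other members of that family. HUG1 (-5.63) encodes an inhibitor of ribonucleotide reductase known from DNA damage, ANB1 (-5.40) the hypoxic form of the translation factor eIF5A and AUS1 (-4.28) a sterol importer. DIP5 (-4.50) is the permease for glutamate and aspartate, FIT2 (-4.50) a wall protein that retains siderophore-bound iron and AQR1 (-4.16) a multidrug transporter. INA1 (-5.11), YML083C (-5.21) and YNR014W (-4.22) completed the list.

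**Figure D2:**
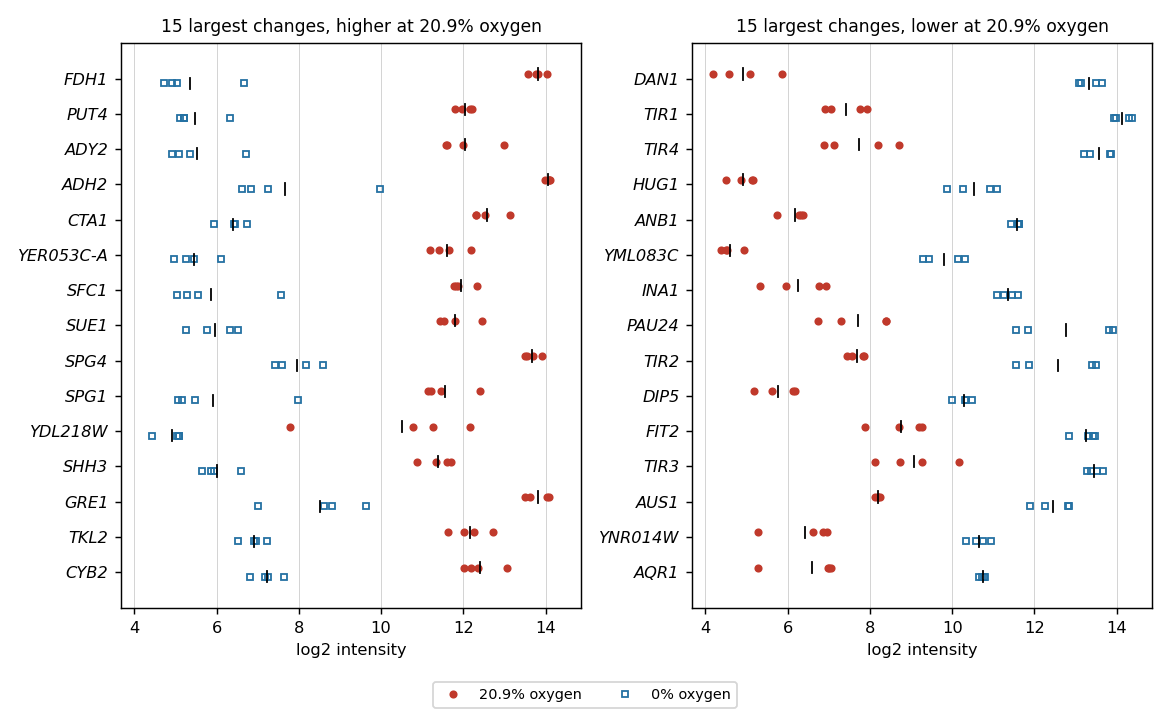
Log2 intensity (horizontal axis) in each of the 4 arrays at 20.9% oxygen (filled circles) and at 0% oxygen (open squares) for the 15 genes with the largest change in each direction, the short black lines being group means. Replicate 1 at 0% oxygen lies apart in FDH1 (6.67), ADH2 (9.98) and SPG1 (7.97), and replicate 4 at 20.9% oxygen in YDL218W (7.79), but the groups overlap in none of the 30 genes.

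Genes were then described by function. The counts of the lists below are to be read beside the 21.9% of all genes that were called higher and the 28.6% called lower at 20.9% oxygen, and their medians beside -0.07. Calls are those of the fit over all genes. The lists were chosen with earlier results of these data known, so their counts are descriptions.

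**Figure D3:**
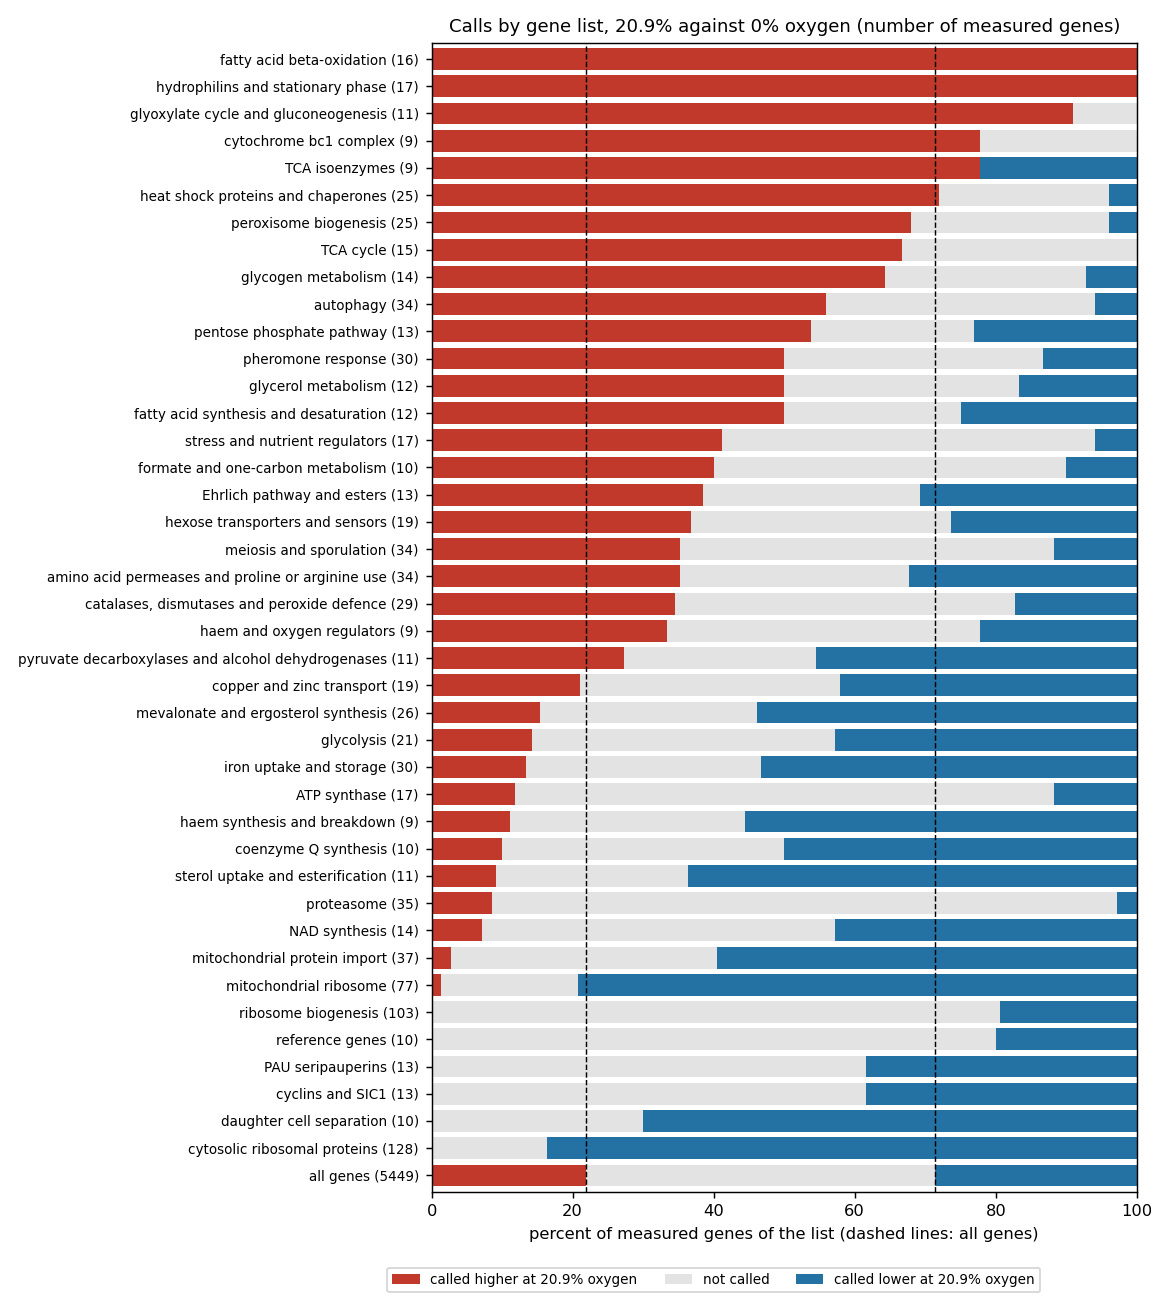
Percent of the measured genes of each list (horizontal axis) that were called higher (left), not called (middle) and called lower (right) at 20.9% against 0% oxygen, for lists of at least 9 genes. Dashed lines mark the shares over all 5449 genes (bottom bar): fatty acid beta-oxidation and the stationary phase genes lie wholly on the higher side and 107 of 128 cytosolic ribosomal proteins on the lower side.

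Without oxygen the yeast cell wall is remodelled, and sterols are imported in place of being made. Of 8 Dan, Tir and Cwp mannoproteins, 6 fell, with a median of -4.64 over the list. CWP2 and CWP1, which these proteins replace in the anaerobic wall, rose at 20.9% oxygen. CWP2 had 14.03, 13.95, 13.96 and 13.75 at 20.9% oxygen and 11.84, 11.76, 12.20 and 11.41 at 0% (change 2.12), whereas CWP1 (1.14) overlapped between the groups. DAN4 fell by 1.69, but its level at 0% oxygen was 11.91 and 11.32 in replicates 1 and 2 and 8.77 and 9.18 in replicates 3 and 4, so that the last 2 were close to the 8.47 to 8.74 of the aerobic arrays, and without replicate 2 at 0% oxygen it was no longer called (-1.35, adjusted p = 0.011). TIR2 and PAU24 were also higher in the first 2 anaerobic cultures (13.50 and 13.40 for TIR2) than in the others (11.86 and 11.54). Of 13 seripauperins 5 fell, among them PAU14 (-2.95) and PAU8 (-3.39), and 8 were not called, with values from 0.22 for PAU21 to -2.23 for PAU3. Many probe sets of this family match several members, so these values cannot be assigned to single genes with certainty. The median level of the 13 genes at 0% oxygen was 11.72, 11.73, 9.36 and 9.21 in replicates 1 to 4. The last 2 lay within the aerobic range, between the 8.17 of replicate 1 and the 9.38 of replicate 3 at 20.9% oxygen. With replicate 4 at 0% oxygen left out, 9 of the 13 were called lower, and 3 when only the 8 arrays were fitted.

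Sterol import and storage genes mostly fell at 20.9% oxygen (7 of 11 lower and 1 higher). Of the sterol importers, AUS1 had 8.20, 8.11, 8.18 and 8.24 at 20.9% oxygen, against 12.85, 12.82, 11.90 and 12.26 at 0%, and PDR11 fell by 2.63. The regulators UPC2 (-2.37) and SUT1 and the esterifying enzyme ARE1 (-1.95) fell too, while ARE2, the paralogue of ARE1, rose by 1.05. In the mevalonate and ergosterol pathway 14 of 26 genes fell and 4 rose, with a median of -0.56. The median level of the list was 11.30, 11.48, 11.62 and 11.32 at 20.9% oxygen and 12.05, 12.05, 11.63 and 11.61 at 0%. Replicates 3 and 4 at 0% oxygen were thus level with the highest aerobic array. HMG1, the main HMG-CoA reductase of aerobic cells, was the exception by size: it had 12.16, 12.16, 12.48 and 12.36 at 20.9% oxygen and 10.14, 9.92, 9.82 and 9.84 at 0% (change 2.36 ± 0.09, adjusted p = 3.25e-15), and HMG2 was not called (-0.10, 95% interval -0.35 to 0.15). The largest decreases were those of ERG26 (-1.97) and ERG4 (-1.74), of the late steps; ERG4 had 9.38 in replicate 4 at 20.9% oxygen, against 10.85 to 10.93 in the other aerobic arrays. ERG11, an oxygen-requiring demethylase, was not called (-0.08, interval -0.24 to 0.07). In a list of 12 genes of fatty acid synthesis and desaturation 6 rose and 3 fell. FAA1, an acyl-CoA synthetase, rose by 2.04 and the elongase gene ELO3 fell by 1.34. MGA2, a membrane-bound activator of the desaturase gene OLE1, fell by 1.64, but OLE1 itself was not called (-0.02, interval -0.36 to 0.32). When only the 8 arrays were fitted, 3 of the 12 were called higher.

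Haem is made only with oxygen, and it serves as the oxygen signal. HEM13, which encodes the oxygen-requiring coproporphyrinogen oxidase, had the smallest adjusted p of all genes: its level was 9.38, 9.35, 9.12 and 9.19 at 20.9% oxygen, against 13.45, 13.49, 13.22 and 13.23 at 0% (change -4.09 ± 0.08, adjusted p = 2.04e-19). HMX1, the haem oxygenase that breaks haem down, was higher in air, with 10.34, 10.25, 10.42 and 10.83 at 20.9% oxygen and 6.25, 6.15, 5.92 and 5.56 at 0% (change 4.49). The other 7 genes of haem synthesis changed less, 4 of them called lower, by 0.72 to 0.96, and 3 not called. Of the regulators, MOT3 (2.09) and ROX1 (0.89), repressors of anaerobic genes, rose, and HAP1 fell by 0.47 with overlapping arrays. HAP4, the activating subunit of the respiratory regulator Hap2/3/4/5, was not called (0.02, interval -0.21 to 0.24).

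Respiration itself was marked by the enzymes that feed electrons into the chain. CYB2 had 12.37, 12.02, 12.18 and 13.07 at 20.9% oxygen, against 7.18, 6.82, 7.64 and 7.24 at 0%. NDE2 (3.90) and NDE1 (2.27), the external NADH dehydrogenases of mitochondria, and GUT2 (2.69), the glycerol-3-phosphate dehydrogenase of the inner membrane, rose as well. DLD3, a cytosolic transhydrogenase of 2-hydroxyglutarate listed with these enzymes, fell by 2.98. Subunits of the complexes changed much less. Of the cytochrome bc1 complex 7 of 9 subunits rose, by at most 0.97 (CYT1, cytochrome c1), 3 of 4 subunits of succinate dehydrogenase rose by 0.37 to 0.47, and 2 of 7 nuclear subunits of cytochrome oxidase without isoforms rose (COX12, 0.62, and COX7, 0.55). ATP synthase had 13 of 17 genes not called, the core subunit ATP1 at 0.07 (interval -0.06 to 0.21) among them, and its regulators STF2 (0.96) and STF1 (0.61) were the 2 that rose. Another 2 fell, the lowest value of the list being -0.54. With cyclic loess 7 of the 17 ATP synthase genes were called higher.

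Some proteins of the chain and of the cytosol have an aerobic and a hypoxic form. All 4 aerobic forms rose and all 4 hypoxic forms fell at 20.9% oxygen. For cytochrome c, CYC1 rose by 1.21 and CYC7 fell by 0.90; for subunit 5 of cytochrome oxidase, COX5A rose by 0.56 and COX5B fell by 2.91; and for the ADP/ATP carrier, PET9 rose by 0.40 and AAC3 fell by 2.16. HYP2, the aerobic eIF5A, rose by 0.67 and ANB1 fell by 5.40. ANB1 was 5.75, 6.37, 6.27 and 6.31 at 20.9% oxygen and 11.64, 11.44, 11.63 and 11.59 at 0%, with almost no spread among the anaerobic cultures. CYC7 overlapped between the groups, and its adjusted p of 0.00873 was close to the threshold.

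The TCA cycle genes rose in part and by little, and their alternative isoenzymes by much more. Of 15 genes of the mitochondrial cycle, 10 rose and none fell, the largest change being 0.85 (LSC1, of succinyl-CoA ligase), and 5 were called higher when only the 8 arrays were fitted. CIT1, IDH1, IDH2, MDH1 and SDH4 were not called, with intervals of -0.15 to 0.11 for CIT1, the mitochondrial citrate synthase, and -0.06 to 0.30 for SDH4. Among 9 isoenzymes of the cycle 7 rose: IDP2 (5.03), CIT3 (4.18), IDP3 (3.21), MDH2 (2.62) and MDH3 (0.84), beside SHH3 and SHH4 (2.81), homologues of the membrane subunits of succinate dehydrogenase. CIT2, the peroxisomal citrate synthase under control of the retrograde pathway, fell by 1.89, with 11.46, 11.50, 11.40 and 11.82 at 20.9% oxygen and 13.24, 13.34, 13.58 and 13.58 at 0%. The soluble fumarate reductase FRD1, which reoxidises reduced flavin without oxygen, fell by 1.57.

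The glyoxylate cycle and gluconeogenesis build sugars from compounds of 2 carbons. Glucose represses their genes. The paper reports glucose below the detection limit in all cultures. Whether residual glucose differed between the levels was not tested here. Of 11 such genes 10 rose, with a median of 3.76. MLS1, malate synthase, had 11.02, 10.97, 11.76 and 11.14 at 20.9% oxygen, against 8.89, 5.98, 6.75 and 6.39 at 0% (change 4.22 ± 0.40, or 4.85 without replicate 1 at 0% oxygen). ICL1, isocitrate lyase, rose by 3.11, FBP1, fructose-1,6-bisphosphatase, by 3.76, and the activator gene SIP4 by 4.34. In MLS1, ICL1, FBP1 and SFC1 replicate 1 was the highest anaerobic array, at 9.65 in ICL1 against 8.08 to 8.33 in the other 3. PCK1, phosphoenolpyruvate carboxykinase, was the single gene of the list that was not called, and its value was of opposite sign (-0.71, interval -1.42 to -0.00). The genes of propionate breakdown CIT3, ICL2 (2.67) and PDH1 (2.33) all rose. Transporters of acetate, ammonium and lactate were high as well, with JEN1, the lactate permease, at 13.62, 13.56, 13.33 and 13.72 at 20.9% oxygen and 9.10, 8.85, 9.08 and 8.92 at 0% (change 4.57 ± 0.11, adjusted p = 2.8e-18).

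Beta-oxidation in yeast takes place in peroxisomes only. All 16 genes of the list rose, by a median of 2.56, and 13 of them at least 2-fold. FOX2, which carries out both middle steps, had 12.90, 12.86, 12.92 and 13.56 at 20.9% oxygen, against 9.22, 9.39, 9.25 and 9.29 at 0%. POX1, the acyl-CoA oxidase that transfers electrons to oxygen (2.14), POT1, the thiolase (3.09), and PXA1, of the importer of activated fatty acids (3.59), rose too, and the regulators OAF1 (0.38) and PIP2 (0.82) rose least. OAF1 was not called when only the 8 arrays were fitted. Replicate 4 at 20.9% oxygen was the highest array in FOX2, POX1, POT1 and PXA1. The 5 genes of the carnitine shuttle, which moves acetyl groups out of peroxisomes, rose by 1.03 to 2.74 (CRC1). Of 25 genes for the making of peroxisomes 17 rose and PEX31 fell by 0.46, the median being 0.63 and the largest change that of PEX18 (2.11), a receptor for import.

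Glucose reaches glycolysis through hexose transporters of different affinity. Of 21 glycolytic genes 9 fell, 3 rose and 9 were not called. Among the genes that fell were the hexokinases HXK2 (-1.15) and HXK1 (-0.71), their homologue EMI2 (-1.74), the phosphofructokinase subunits PFK1 (-0.66) and PFK2 (-0.50) and, of a late step, the phosphoglycerate mutase homologues GPM3 (-1.20) and GPM2 (-0.71). Both enzymes that make fructose-2,6-bisphosphate changed in opposite directions: PFK26 had 10.70, 11.05, 10.79 and 11.00 at 20.9% oxygen and 9.64, 9.89, 9.91 and 10.04 at 0%, whereas PFK27 had 6.66, 6.86, 6.68 and 5.88 at 20.9% and 8.99, 8.75, 8.52 and 8.73 at 0% oxygen. TDH3, the main glyceraldehyde-3-phosphate dehydrogenase, was 14.57 to 14.62 at 20.9% and 14.56 to 14.59 at 0% oxygen, near the top of the scale of the arrays. The list's median of -0.08 became 0.08 with cyclic loess, so no direction is given for it as a whole. HXT5, a transporter of slow-growing cells, rose by 4.98 and HXT2 and HXT4 by 1.62 and 1.73, while HXT17 fell by 1.95 and HXT7 by 0.32. HXT7 was not called with cyclic loess (-0.15) or when only the 8 arrays were fitted, and the probe sets of HXT17 and HXT7 also match near-identical transporters.

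Fermentation genes did not move together. ADH1, the enzyme that forms ethanol, fell by 0.86, and ADH3 (-1.20) and ADH5 (-2.09) fell too, while the pyruvate decarboxylase PDC1 was not called (-0.02, interval -0.15 to 0.11). ADH2 had 14.07, 14.11, 13.98 and 14.09 at 20.9% oxygen, against 9.98, 6.62, 6.83 and 7.25 at 0%; without replicate 1 at 0% oxygen its change was 7.17 instead of 6.39. PDC6 rose by 1.85, with 11.46 in replicate 2 and 8.85 in replicate 4 at 20.9% oxygen. Of the enzymes that turn acetaldehyde into acetyl-CoA, ACS1 (3.76), ALD3 (3.22), ALD4 (0.97) and ALD6 (0.96) rose and ALD5 was not called. Glycerol is the anaerobic sink for surplus NADH. STL1, the glycerol importer (3.08), GCY1 (2.67) and GUT1 (2.43), which begin its use, rose, as did GPD1 (1.02), the first enzyme of its synthesis. GPP1, the glycerol phosphatase that follows, fell by 0.87, and GPD2, the form of GPD1 known from anaerobic growth, was not called (-0.42, interval -0.99 to 0.16).

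A recurring pattern was a large rise in a minor isoenzyme beside a small change in the main one. In the pentose phosphate pathway, which supplies NADPH, TKL2 had 11.63, 12.02, 12.27 and 12.71 at 20.9% oxygen and 7.23, 6.51, 6.91 and 6.95 at 0%, while its paralogue TKL1 fell by 0.69. GND2 rose by 4.54 and GND1 was not called (0.18, interval 0.02 to 0.34), NQM1 rose by 4.13 and TAL1 by 0.28, and SOL4 rose by 3.97 and SOL3 by 0.48. TAL1 was not called when only the 8 arrays were fitted. The paper reports that GND1, TKL1 and TAL1 did not differ significantly between oxygen levels on these arrays. Outside this pathway, PMA2, a minor proton pump of the plasma membrane, rose by 4.67 and PMA1 fell by 0.56. HEF3, a second form of translation elongation factor 3, had 10.71, 11.49, 11.62 and 11.88 at 20.9% oxygen, against 7.24, 6.83, 7.56 and 7.58 at 0%, and YEF3 fell by 0.53. SSA3, an inducible Hsp70, rose by 4.59 and SSA2 was not called (0.02, interval -0.17 to 0.21). Of 26 pairs, 12 were called in opposite directions, in 7 of which the gene named first was the higher at 20.9% oxygen and in 5 the gene named second. When only the 8 arrays were fitted 8 pairs were called so, with TKL1, PMA1, YEF3 and TSA2 among the genes not called; cyclic loess also gave 8, and leaving out single arrays 8 to 11. The 95% intervals of the changes were apart in all 26 pairs, which were chosen with their values known.

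**Figure D4:**
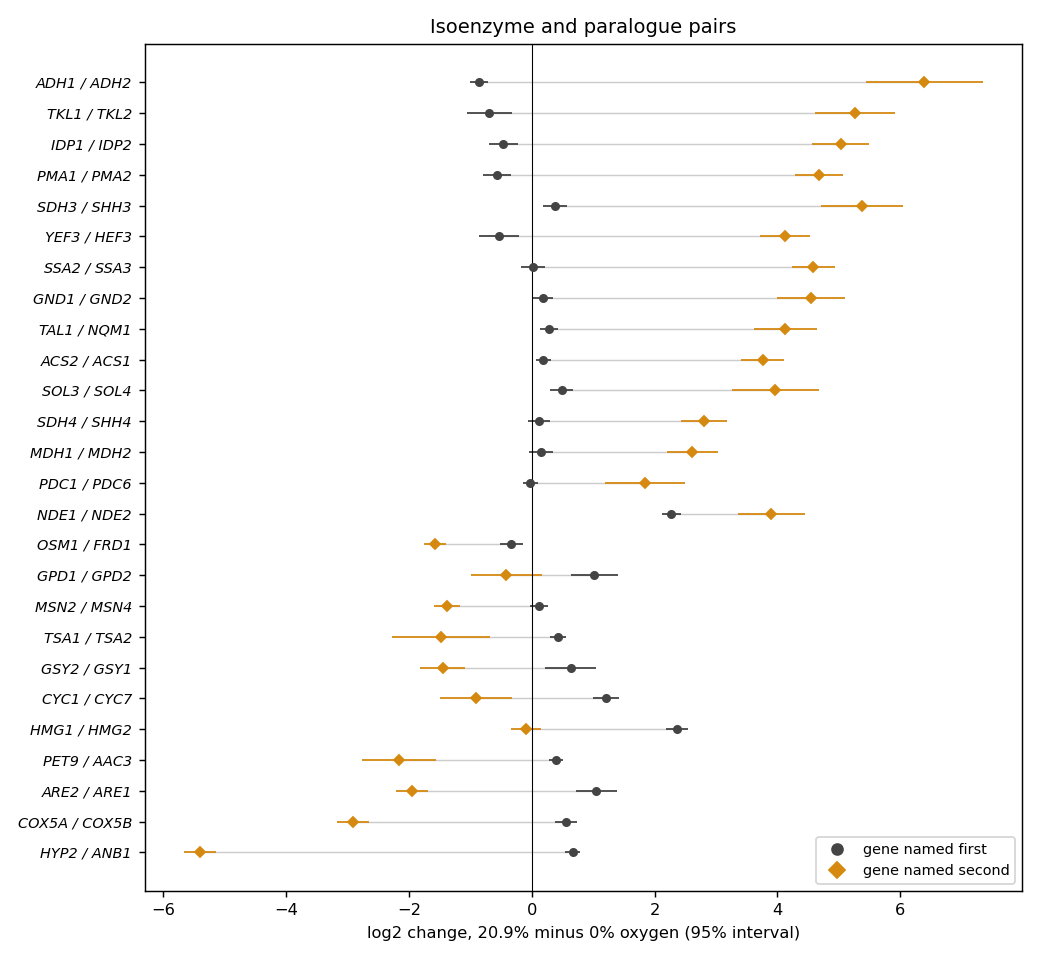
Log2 change (20.9% minus 0% oxygen, with 95% intervals from the limma fit) of both genes of 26 isoenzyme or paralogue pairs, circles for the gene named first and diamonds for the gene named second, ordered by the difference between them. From ADH1 and ADH2 at the top (-0.86 and 6.39) to HYP2 and ANB1 at the bottom (0.67 and -5.40), most genes named first stay near 0 while their partners move far to either side.

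Genes of stress and stationary phase were higher at 20.9% oxygen although the growth rate was the same. All 17 hydrophilins and stationary phase genes rose, by a median of 2.32, and 14 of them at least 2-fold. GRE1 had 13.50, 14.04, 14.08 and 13.62 at 20.9% oxygen and 9.63, 7.02, 8.81 and 8.62 at 0%. SIP18, a desiccation protein, rose by 4.01, RTN2, a reticulon of the endoplasmic reticulum, by 4.35, GRE2, a methylglyoxal reductase, by 3.63, and the wall protein YGP1 by 2.74. Of 25 heat shock proteins and chaperones 18 rose and 1 fell. The Hsp70 gene SSA4 had 11.83, 12.37, 12.49 and 12.28 at 20.9% oxygen, against 8.65, 8.63, 8.62 and 8.67 at 0% (change 3.60 ± 0.16). HSP26 (3.33) and HSP42 (2.45), small heat shock proteins, HSP104 (1.19), the disaggregase, and HSP12 (1.07) rose, while SSB2, of the ribosome-bound Hsp70, fell by 0.48. The membrane protein gene HSP30 rose by 3.04 with a wide spread at 20.9% oxygen, where it was 11.33, 12.29, 12.82 and 9.96, and by 3.79 without replicate 4 at 20.9% and replicate 1 at 0% oxygen.

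Storage carbohydrates and their regulators followed in part. Of 7 trehalose genes 6 rose, among them ATH1, the acid trehalase (1.91), and TSL1 (1.28), and TPS3 fell by 0.55; without replicate 4 at 20.9% and replicate 1 at 0% oxygen 3 were called higher. In glycogen metabolism 9 of 14 genes rose, led by GIP2 (2.65), a subunit that targets protein phosphatase, and SGA1 (2.23), a glucoamylase, and the glycogen synthases parted, with GSY2 at 0.63 and GSY1 at -1.45. Of 17 regulators of stress and nutrient responses 7 rose and 1 fell. XBP1, a repressor of stressed cells, had 10.65, 11.04, 11.14 and 10.99 at 20.9% oxygen and 7.72, 7.83, 8.44 and 8.31 at 0% (change 2.88). The stress activator MSN4 fell by 1.38, with 8.50 to 8.63 at 20.9% and 9.89 to 9.98 at 0% oxygen, whereas its paralogue MSN2 was not called (0.12, interval -0.03 to 0.26). Of 34 autophagy genes 19 rose and 2 fell. ATG39, a receptor for the autophagy of the nuclear envelope, rose most (2.87), and ATG10 fell by 0.70.

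Reactive by-products of oxygen are removed by catalases, dismutases and peroxidases. Of 29 genes of this defence 10 rose, 5 fell and 14 were not called. CTT1, the cytosolic catalase, had 9.71, 10.79, 11.30 and 11.38 at 20.9% oxygen, against 7.81, 6.61, 6.74 and 6.93 at 0% (change 3.77), and CTA1 had 12.30, 12.53, 12.31 and 13.12 against 6.74, 5.94, 6.43 and 6.44. SOD2, the mitochondrial superoxide dismutase, was 13.05 to 13.13 at 20.9% and 10.88 to 11.39 at 0% oxygen (change 1.89), while the cytosolic SOD1 was not called (0.22, interval 0.05 to 0.38). GPX1, a glutathione peroxidase, rose by 2.78. In contrast, the thioredoxin gene TRX1 fell by 1.00 and the peroxiredoxin gene TSA2 by 1.48. TSA2 overlapped between the groups, since at 0% oxygen it was 11.15 and 11.52 in replicates 1 and 2 but 9.89 and 9.58 in replicates 3 and 4, and its change without replicate 4 at 20.9% and replicate 1 at 0% oxygen was -0.85 and not called.

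Yeast takes up iron through a reductive system at the plasma membrane and through siderophore carriers, both under control of Aft1. Of 30 genes of iron uptake and storage 16 fell, 13 of them at least 2-fold, and 4 rose. FIT2 had 9.19, 9.27, 8.70 and 7.88 at 20.9% oxygen and 12.85, 13.43, 13.30 and 13.47 at 0%, and its neighbour FIT3 fell by 2.69. SIT1 (-3.31), ENB1 (-1.72) and ARN1 (-1.59), carriers of siderophores, FTR1 (-1.91), the high-affinity permease, and FET4 (-3.44), a low-affinity transporter, fell, and so did AFT1 itself (-1.18) and TIS11 (-2.63), which destabilises transcripts of iron-using proteins. FET3, the multicopper oxidase that needs oxygen, fell by 1.33 with overlapping arrays and was not called when only the 8 arrays were fitted (adjusted p = 0.0291). The ferric reductases parted: FRE5 fell by 3.21 and FRE4 rose by 2.67, with 8.52, 8.61, 8.05 and 8.88 at 20.9% oxygen and 5.65, 5.89, 5.91 and 5.91 at 0%. For copper, the transporter CTR3 had 11.82, 11.89, 11.90 and 11.57 at 20.9% oxygen and 7.09, 9.38, 10.33 and 10.33 at 0%. Without replicate 1 at 0% oxygen the change of CTR3 was 1.79 instead of 2.52. That replicate was the lowest array by far in CTR3, as it was among the anaerobic arrays in TIS11 (7.65, against 9.07 to 9.83). The zinc-regulated genes IZH4 (-2.13) and IZH2 (-1.55) fell.

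Amino acid transport split by permease. In a list of 34 genes of permeases and of proline and arginine use 12 rose and 11 fell. PUT4 was 12.16, 11.80, 11.98 and 12.21 at 20.9% oxygen, against 6.33, 5.21, 5.22 and 5.11 at 0%, a 95.1-fold difference. The enzymes of proline breakdown, which depends on respiration in yeast, rose with it, PUT1 by 3.42 and PUT2 by 1.01, and so did GAP1, the general permease (2.09), and CAR2, of arginine breakdown (2.11). Of the permeases known to answer to the sensor of external amino acids, BAP2 rose by 1.82, while BAP3 (-3.74), AGP1 (-3.12), GNP1 (-2.34), TAT1 (-1.84) and DIP5 fell. BAP3 and AGP1 were higher in replicates 1 and 2 (9.44 and 9.80 for BAP3) than in replicates 3 and 4 (8.06 and 8.20) at 0% oxygen. In the Ehrlich pathway, by which amino acids are turned into fusel alcohols, ARO9 (4.28) and ARO10 (3.23) rose. ARO10 had 9.74 in replicate 3 and 6.77 to 7.53 in the other arrays at 20.9% oxygen, and its change without replicate 3 was 2.57. ATF2 (-4.06) and EEB1 (-3.27), which form esters, fell.

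Among genes of protein synthesis, those of cytosolic ribosomal proteins moved together by a small amount. Of 128 cytosolic ribosomal protein genes 107 were called lower and none higher, the median being -0.47 and all 128 values being negative. The median of the list was 12.4, 12.4, 12.3 and 12.2 in the arrays at 20.9% oxygen and 12.9, 12.8, 12.8 and 12.7 at 0%, without overlap. Changes ran from -1.28 (RPS28B) to -0.09 (RPS11A), and many of these genes have near-identical paralogues that the probe sets may not separate. The count depended on the fit: 69 were called lower with cyclic loess (median -0.30) and 71 when only the 8 arrays were fitted. Of 103 ribosome biogenesis genes 20 were called lower, a smaller share than the 28.6% of all genes, and 83 were not called. The median of -0.44 of this list rested on replicate 4 at 20.9% oxygen. Its list median was 8.26, against 9.12 to 9.21 in the other 3 aerobic arrays and 9.28 to 9.40 in the anaerobic arrays, and without it the median change was -0.16 and 6 genes were called. Leaving out any single anaerobic array gave 9 to 12 calls. NOP10, of the pseudouridylation complex, fell by 1.18 with little spread (9.91 to 10.10 at 20.9% and 10.91 to 11.29 at 0% oxygen).

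Genes for the building of mitochondria were mostly lower at 20.9% oxygen. Of 77 genes of the mitochondrial ribosome 61 fell and 1, MRP20 (0.24), rose, with a median of -0.53. MRPL39 fell most, with 10.07, 9.60, 9.71 and 10.04 at 20.9% oxygen and 11.08, 11.12, 11.28 and 10.92 at 0% (change -1.24). The list median was 9.40 to 9.69 in the aerobic and 9.99 to 10.1 in the anaerobic arrays. Of 37 genes of mitochondrial protein import 22 fell and TIM21 rose by 0.91. The small subunits TOM5 (-1.27) and TOM7 (-1.06) of the outer membrane translocase fell, as did HOT13 (-1.43), of the intermembrane space. In coenzyme Q synthesis 5 of 10 genes fell (3 when only the 8 arrays were fitted) and COQ4 rose by 0.84. NAD synthesis by the kynurenine pathway uses oxygen, and 6 of 14 genes of NAD metabolism fell, among them BNA2 (-1.24) and TNA1, the nicotinic acid importer (-1.72). Of 35 proteasome genes 31 were not called. RPN4, the activator of these genes, rose by 1.19. The few calls in this list depended on the handling of the arrays: cyclic loess gave 13 higher, and the fit without replicate 4 at 20.9% oxygen gave 6 lower.

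The mating genes of alpha cells were higher at 20.9% oxygen, as were those specific to a cells. All 4 alpha-cell genes rose, by a median of 1.59. SAG1, alpha-agglutinin, had 11.07, 10.75, 9.89 and 10.05 at 20.9% oxygen, against 8.54, 8.37, 7.93 and 8.47 at 0%, and MF(ALPHA)2, a gene of the alpha factor, 9.79, 9.64, 8.01 and 7.79 against 7.19, 6.58, 6.53 and 6.36. In both genes replicates 1 and 2 at 20.9% oxygen were the higher ones. The 6 genes specific to a cells rose by 0.63 to 1.50, from levels near the tenth percentile of all genes. Of 30 pheromone response genes 15 rose and 4 fell. AGA1, the anchor of a-agglutinin, rose by 2.47 and the transcription factor genes KAR4 and TEC1 by 1.70 and 1.67, while the kinase gene STE20 fell by 0.59. Of 34 genes of meiosis and sporulation 12 rose, 4 fell and 18 were not called. The median level of this list was below the tenth percentile of all genes in every array. It was 5.64 to 5.93 at 20.9% and 5.54 to 5.98 at 0% oxygen. Leaving out single arrays gave 9 to 11 genes called higher, and the replicate number as a block in a fit of the 8 arrays gave 7. IME1, the master regulator of entry into meiosis, rose by 2.03, and NDT80, which drives the later stages, was not called (-0.35, interval -0.63 to -0.08). SPS100, a spore wall gene, had 10.16, 11.84, 12.26 and 7.92 at 20.9% oxygen and 5.30 to 6.14 at 0%, a change of 4.72 that became 5.59 without replicate 4 at 20.9% oxygen.

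Genes that follow the division cycle were lower at 20.9% oxygen where they differed. Of 10 genes for the separation of daughter cells 7 fell, with a median of -1.07, and none rose. DSE2 had 9.65, 9.28, 9.99 and 10.24 at 20.9% oxygen, against 11.57, 11.62, 11.25 and 11.61 at 0%, and DSE1 (-1.86) and the chitinase gene CTS1 (-0.67) fell too. Of 12 cyclins and the inhibitor SIC1, 5 fell (2 when only the 8 arrays were fitted), CLB2 by 0.97, and CLN2 was not called (-0.34, interval -0.68 to -0.01). Ribonucleotide reductase makes the precursors of DNA, and 6 of 8 genes for it and its inhibitors fell, or 3 when only the 8 arrays were fitted. RNR1, its large subunit, fell by 1.17 with 10.62, 10.54, 10.55 and 9.89 at 20.9% oxygen and 11.59, 11.68, 11.28 and 11.72 at 0%. HUG1 had 4.86, 5.13, 5.15 and 4.50 at 20.9% oxygen, against 11.08, 10.92, 10.27 and 9.89 at 0%, and DIF1, which also holds the enzyme in check, fell by 1.77. RNR3, a large subunit known from DNA damage like HUG1, was not called (-0.03, interval -0.28 to 0.22).

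Genes with only a systematic name made up 499 of the 5449. Of these 134 were called higher and 104 lower, and 60 and 31 changed at least 2-fold. YER053C-A had 11.19, 11.42, 11.64 and 12.17 at 20.9% oxygen and 6.10, 4.96, 5.45 and 5.26 at 0%. YKL107W (4.81), YNL194C (4.54), YNL195C (4.22) and YGR067C (3.89) rose as well. YML083C fell by 5.21, with 4.37 to 4.95 at 20.9% and 9.29 to 10.32 at 0% oxygen, and YHL042W (-2.96) and YGR035C (-2.90) fell too. Of the 499 genes, 177 had a mean below the tenth percentile at both oxygen levels.

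The 672 genes changed at least 2-fold were followed through the 3 intermediate supplies of 0.5, 1 and 2.8% oxygen, as a description without a test, since the ends of each profile are the arrays already compared. At each of these levels the arrays came from fewer cultivations than arrays. At 0.5% oxygen, 136 of the 258 genes that were lower at 20.9% oxygen had already gone at least 50 percent of the way, on the log2 scale, between their 0% and 20.9% means, as had 167 of the 414 that were higher; at 2.8% oxygen the numbers were 146 and 166. Group means are given from the lowest to the highest supply. Some genes had gone most or all of the way already at the lowest supply of oxygen. DAN1 was at 13.34, 4.39, 4.36, 4.28 and 4.92, and ANB1 at 11.57, 6.34, 6.27, 6.34 and 6.17. HMX1 was at 5.97, 9.90, 10.53, 10.85 and 10.46, with 87.6 percent of the way gone at 0.5% oxygen. Others stood apart only at full aeration: SSA3 was at 8.50, 9.15, 8.81, 8.45 and 13.09, YDL218W at 4.91, 5.13, 5.03, 4.73 and 10.50, and FIT2 at 13.26, 12.85, 12.72, 13.04 and 8.76. A wider count took genes with all 3 intermediate means within the first 20 percent of the way or on the far side of 0% oxygen. These were 59 of the 414 and 18 of the 258. In 20 of the 59 and 6 of the 18 all 3 means lay on the far side. HXT2, described below, was 1 of these 20 and far below its 0% mean at 0.5% oxygen, so the count is not of genes apart only at full aeration. RNR1 was 1 of the 18, at 11.57, 11.49, 11.44, 11.36 and 10.40.

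FDH1 had a graded profile, at 5.34, 5.84, 7.53, 10.59 and 13.80. Further profiles lay outside the range of the ends. SAG1 was at 8.33, 12.93, 12.93, 12.83 and 10.44 and MF(ALPHA)2 at 6.66, 12.63, 12.94, 13.06 and 8.81, so that full aeration and anaerobiosis were closer to each other than to the levels between them. In 31 of the 414 higher genes all 3 intermediate means were above that at 20.9% oxygen, as in PDR12, a weak acid pump (6.97, 11.69, 12.62, 13.07 and 11.33), and PUT1 (7.51, 11.18, 12.16, 12.75 and 10.93). HXT2 was the opposite case, at 10.75, 7.86, 8.36, 10.00 and 12.36, 1 of 20 higher genes with all 3 intermediate means below that at 0% oxygen.

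**Figure D5:**
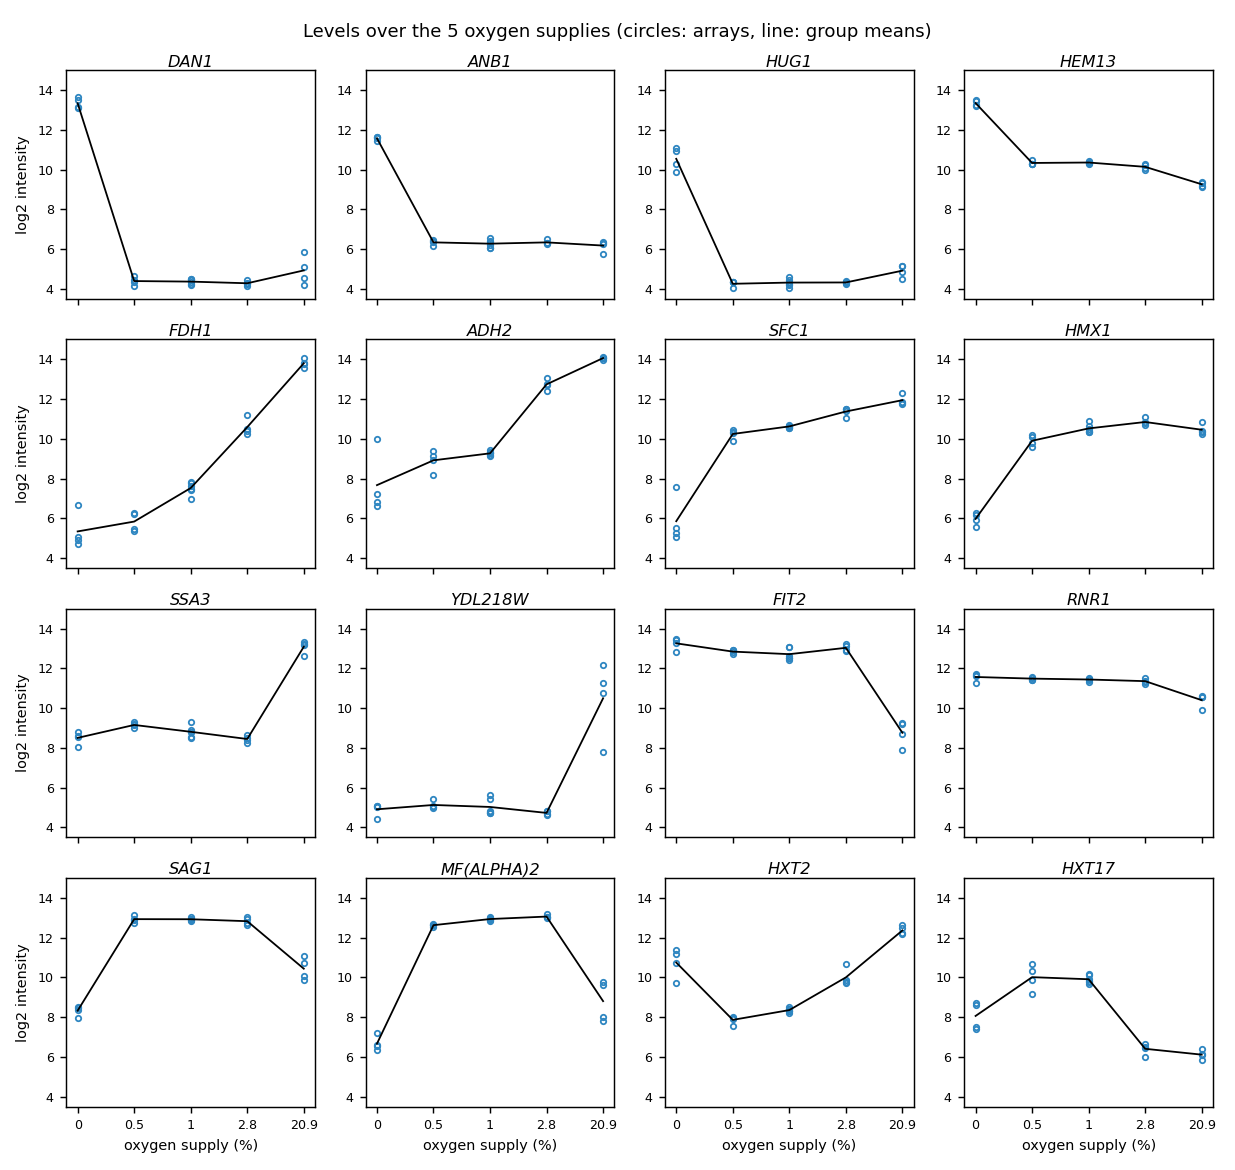
Log2 intensity (vertical axis) of 16 genes at the 5 oxygen supplies (horizontal axis, in equal steps), circles for arrays (6 at 1% and 4 at each other level) and lines through the group means. DAN1, ANB1 and HUG1 are low from 0.5% oxygen on, SSA3, YDL218W, FIT2 and RNR1 differ between 2.8 and 20.9% oxygen, and SAG1 and MF(ALPHA)2 are highest in between.

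A comparison that was not called does not show equality, so intervals were used to find genes with little change. Of the 2692 genes that were not called, 783 had an unadjusted p under 0.05, and 2235 had a 95% interval within 1.5-fold either way. A further 533 genes were called although their interval lay within that range, and 114 genes were not called although their interval reached beyond 2-fold. Of 10 genes often used as references for expression 8 were not called. ACT1, actin, was 13.64 to 13.66 at 20.9% and 13.56 to 13.65 at 0% oxygen, with an interval of -0.07 to 0.13. The remaining 2 of these genes, TUB2 (-0.24) and TFC1 (-0.25), were called lower, but neither was called with cyclic loess.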

How the data were processed

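Transcript levels were measured in 22 RNA samples on Affymetrix GeneChip Yeast Genome arrays. Per the labels and the study's methods, the authors normalised all arrays together with RMA (robust multi-array average: background correction, quantile normalisation and summary of the probes of a set) and deposited log2 intensities. The deposited values were used without further scaling (array medians 9.04 to 9.10, no missing values, 0 columns of other samples). Of 5716 probe sets, 5498 were paired with 1 gene by the platform annotation and matched to a RefSeq gene table, 12 symbols were updated, and 218 had no gene name. For 47 genes with several probe sets the most specific one, and among equals the brightest over all arrays, was kept, which gave 5449 genes; 71 were measured by a set of near-identical transcripts and 10 by a set that may cross-hybridise.

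All 22 arrays entered a single linear model (limma 3.58.1, R 4.3.3) in which each of the 5 oxygen supplies was a group, so that the levels shared an estimate of the spread, and moderated statistics of the contrast 20.9% minus 0% oxygen were adjusted by the Benjamini-Hochberg method over all genes. The repeated samples of a cultivation at 0.5, 1 and 2.8% oxygen entered as separate arrays. A gene was called at an adjusted p under 0.01; "rose", "fell" and "changed" are used of called genes. Standard errors and 95% intervals are from this fit. The script was tested on simulated data. The number of arrays limits the precision; for arrays there is no read depth.

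Genes and lists were chosen with earlier results of these data known. Named were the 15 genes with the largest change in each direction whose arrays did not overlap, and of 56 gene lists the members with the largest changes, those that went against the list and those not called; paralogues were named together. Genes of 10 further lists in the closing section and those followed over 5 oxygen levels were chosen after their values had been seen. Alternatives were a replicate block, only the 8 arrays, other treatments of probe sets, dim genes, normalisation and variance, other thresholds, and each array left out. Leaving out 2 arrays together was added after seeing the data. Tables were made with Python 3.11.15, NumPy 2.4.6 and pandas 2.3.3 and plots with Matplotlib 3.10.9.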

Additional observations from a re-analysis of the deposited data

Results flagged for a closer look

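In groups of 4 arrays, a single array lay far from the other 3 by Dixon's criterion at the 95% level in 39 of the 532 groups of the named genes; chance gives about 1 in 20 groups. Over all genes the share was 6.68%, and 300 of the 728 such groups were due to replicate 4 at 20.9% oxygen, against 37 to 104 for each of the other 7 arrays. Replicates 1 to 4 at 0% oxygen accounted for 51, 39, 95 and 104. Replicate 1 at 0% oxygen thus stood apart among the named genes (10 of the 39 groups) but not over all genes. Replicate 4 at 20.9% oxygen was the lowest aerobic array, at 7.75 in AGP1, 5.29 in AQR1, 9.38 in ERG4, 9.89 in RNR1, 12.07 in SSB2, 10.04 in SUL2, 11.05 in TKL1 and 11.95 in YEF3, and the highest at 13.56 in FOX2, 12.91 in POX1 and 12.18 in PXA1. The other aerobic arrays far from their group were replicate 1 at 8.29 in ALD3, 5.75 in ANB1, 7.76 in PEX31 and 11.19 in PUT1, replicate 2 at 14.47 in HSP26, and replicate 3 at 11.69 in ALD5 and 12.81 in HXT7. Among the anaerobic arrays, replicate 1 was the highest at 6.67 in FDH1, 9.65 in ICL1, 6.33 in PUT4 and 7.97 in SPG1, and the lowest at 13.56 in ACT1, 5.65 in FRE4, 11.18 in IDH2, 11.50 in LSC1, 7.80 in PXA1 and 9.96 in YGP1. Replicate 2 was at 6.96 in HXT5 and 4.43 in YDL218W, replicate 3 at 6.77 in AGA1, 11.25 in DSE2 and 11.00 in SUL2, and replicate 4 at 10.05 in ACS1, 10.91 in NOP10, 12.17 in SEC61, 13.27 in SSB2, 10.43 in TOM5 and 10.77 in TOM7. Why these arrays lay apart was not tested.

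Probe sets without a gene name, which no comparison above used, also differed between the levels. Of 218 such probe sets 118 were called, 67 higher and 51 lower at 20.9% oxygen, and 42 changed at least 2-fold.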

How the results depend on the processing

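The count of 2757 called genes stayed within 1.5 times under all alternatives but 1. Leaving out 1 array gave 2494 to 2788 calls, and 624 to 739 of at least 2-fold. Fitting only the 8 arrays gave 1949 calls, and leaving out the dimmest 25% of genes 2199 of 4087. The values gave no sign that the replicate numbers of the labels pair the cultures. Same-numbered arrays deviated from their group means with correlations of 0.06, 0.12, -0.04 and 0.04, and 3 of 8 arrays correlated best with their own number. Such correlations cannot exclude a pairing. With the replicate number as a block in the fit of all arrays, 2428 genes were called, and with the block in a fit of the 8 arrays alone 1618 (792 higher and 826 lower), with 648 changed at least 2-fold. Under that last block the calls fell to 0 of 12 genes in fatty acid synthesis (higher), 3 of 9 in the bc1 complex, 35 of 77 in the mitochondrial ribosome (lower), 61 of 128 in cytosolic ribosomal proteins and 9 of 26 in sterol synthesis, to 4 of 17 for the Sec61 channel and signal recognition particle, 5 of 13 for sulphate assimilation and 2 of 4 aerobic isoforms, and 3 of 26 pairs were called in opposite directions.

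No gene called in both the fit described and an alternative had the opposite sign. Of 237 named genes that were called, 204 were also called in every alternative fit that tested them. The other 33 included genes with small or widely spread changes, such as CWP1, CYC7, DAN4, GSY2, HAP1, MRP20, SSB2, TSA2, TUB2 and YEF3, which lost the call when a single array was left out. The adjusted p of CYC7 was 0.0306 without replicate 2 at 20.9% oxygen, that of GSY2 0.0334 without replicate 4 at 20.9% oxygen, and that of MRP20 0.0371 without replicate 1 at 0% oxygen. Cyclic loess between arrays moved the median of all genes by 0.07 and turned the medians of glycolysis (0.084, against -0.082), of the proteasome (0.161, against -0.0044) and of the reference genes (0.119, against -0.02). It also moved that of the haem and oxygen regulators to 0.087, against -0.0193; the cause was not tested. Motifs in promoters were not searched, since no promoter sequences were used here. The number of arrays limits what can be called, and of the genes not called 114 had an interval beyond 2-fold.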

Other observations

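Some further gene groups were put together after their values had been seen, so their counts are descriptions. All 15 measured genes of the vacuolar proton pump, which acidifies the vacuole, were lower at 20.9% oxygen, and the 4 arrays of each level were apart in each of them. The median change was -0.82, and 5 genes changed at least 2-fold. VMA3, a proteolipid of the membrane ring, had 11.23, 11.49, 11.25 and 11.87 at 20.9% oxygen, against 12.85, 12.84, 12.67 and 12.70 at 0% oxygen (change -1.30), and VMA13, a regulatory subunit, changed least (-0.27). VMA13 was not called with cyclic loess (-0.09) or when only the 8 arrays were fitted. Of 18 genes of the COPII and COPI vesicle coats 11 were called lower, the GTPase gene SAR1 by the most (-1.06), and of 17 genes of the Sec61 channel and the signal recognition particle 11, while SEC61 itself was not called (0.09, interval -0.05 to 0.22). When only the 8 arrays were fitted, 6 of these 17 genes were called lower. Of 9 core histone and related genes 6 were called lower, with HTB2 (-1.16) and HTA2 (-1.08), which lie next to each other, in front and HTA1 not called (-0.09). Replicate 4 was the lowest aerobic array in HTB2 (10.31, against 11.00 to 11.26) and in HTA2 (10.43, against 11.01 to 11.39).

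Vitamin genes differed in direction within a pathway. For biotin, BIO5 (2.68), BIO3 (1.76) and BIO4 (1.22), of the early steps and the uptake of their substrates, rose, while BIO2, the iron-sulphur enzyme of the last step, had 9.84, 9.67, 9.41 and 8.95 at 20.9% oxygen and 10.14, 10.20, 10.78 and 10.83 at 0% (change -1.02). Of 13 thiamine genes 9 rose, among them THI4 (1.69) and the transporter gene THI7 (1.61), and PHO3, a phosphatase that releases thiamine, fell by 0.91. IMA1, an isomaltase, had 6.59, 6.72, 6.33 and 7.03 at 20.9% oxygen and 9.75, 10.12, 9.82 and 9.85 at 0% (change -3.22), whereas IMA5 rose by 2.39. Of 13 genes of sulphate assimilation and methionine synthesis 9 were called lower, such as MET3 (-0.90) and SUL2 (-0.81), and none higher, or 5 lower when only the 8 arrays were fitted.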
